A study of Mus musculus with 19 samples.

Results

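TRiC (also called CCT) is the chaperonin of the cytosol, and its 8 subunit genes, Tcp1, Cct2, Cct3, Cct4, Cct5, Cct6a, Cct7 and Cct8, were followed in the striatum of mice that carry mutant huntingtin (HTT) of different lengths. The members were taken by name, 8 of the 54232 genes in the count table, and all 8 were detected well enough to be tested, along with 18521 genes in all. RNA sequencing covered 19 mice of the C57BL/6 background at 6 months of age. Of these, 7 were wild type (WT), and each of the genotypes KI-FL, KI-571 and KI-96 had 4. KI-FL is the HD140Q knock-in line, in which the endogenous gene holds an expanded CAG repeat and encodes full-length mutant HTT. CRISPR/Cas9 cuts in that allele gave KI-571 and KI-96, which keep an N-terminal fragment of the protein, the shorter one in KI-96. The 3 KI genotypes therefore share the expanded repeat, and the WT mice lack it. According to the study's methods the truncated lines were kept as heterozygotes, since homozygotes did not survive, so that these mice also carry a normal allele. The labels do not give the sex of the mice. Xist, which is made from the inactive X chromosome of females, was at 886 to 1615 CPM in all 4 KI-96 mice, in 1 of 7 WT mice (1055 CPM) and in 1 of 4 KI-FL mice (1210 CPM), and at 0.27 to 5.05 CPM in the others, so that the KI-96 genotype and the Xist level can hardly be told apart here.

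TRiC is built of stacked rings, each holding the 8 different subunits side by side, and it closes around an unfolded protein and releases it after ATP hydrolysis. Actin and tubulin are its best known clients, and prefoldin hands such clients to it. TRiC is also known to bind the N-terminal part of mutant HTT, and its subunits have been studied as modifiers of polyglutamine aggregation. Since a ring needs every subunit, the question put to the data was whether the 8 mRNAs differed between the genotypes and whether they moved together from mouse to mouse.

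The genes lie on 8 different chromosomes of the mouse genome (GRCm38). Tcp1 lies at chr17:12915701-12925067, Cct2 at chr10:117051001-117063814, Cct3 at chr3:88297116-88321767 and Cct4 at chr11:22990519-23003780. Cct5 lies at chr15:31590800-31601804, Cct6a at chr5:129786998-129846371, Cct7 at chr6:85451514-85468475 and Cct8 at chr16:87483326-87495873. Cct2, Cct5 and Cct8 are on the minus strand and the others on the plus strand. The other genes are coding in GENCODE release M21, whereas Cct6a is entered there as a processed transcript with no coding sequence. Exons of Tcp1 share 16.9% of their bases with neighboring genes, those of Cct6a 15.3% (Psph, Gm23245 and Snora15), those of Cct8 6.22% (Usp16) and those of Cct7 3.16% (Pradc1), and reads there could have been set aside or counted for either gene. Cct2, Cct3, Cct4 and Cct5 overlap no annotated gene. A search of all annotated transcripts found 10 pseudogene copies of 5 subunits with at least 80% identity over 100 bases, of which 9 were in the count table, with at most 4 counts in any mouse. The same search found 5 coding genes. Psph, Pradc1, Usp16 and Acat3 are among the overlapping neighbors. Acat2 does not overlap Tcp1 but matched its transcript at 98.7% identity over 445 bases, and held 359 to 1208 counts per mouse. Its part in the counts of Tcp1 was not tested.

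Promoter sequences show what the subunit genes share next to their starts, apart from their mRNA levels. RefSeq windows on GRCm38.p6 (250 bases before to 50 bases after a start) were matched for 7 of the 8 genes, with 9 windows in all. The 3 genes whose KI-FL levels lay apart from WT (Tcp1, Cct2 with its 2 starts, and Cct3) and Cct6a, which followed the other subunits least in log2 CPM across all mice, are printed here as the 250 bases before the start on the strand of the gene, with capitals for motif matches that lie wholly in the printed bases.
Tcp1, chr17:12916079-12916328, plus strand: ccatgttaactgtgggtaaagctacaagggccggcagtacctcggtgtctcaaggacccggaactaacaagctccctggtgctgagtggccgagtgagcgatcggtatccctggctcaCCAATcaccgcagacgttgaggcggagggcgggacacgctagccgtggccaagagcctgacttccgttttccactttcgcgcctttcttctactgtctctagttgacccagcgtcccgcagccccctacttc
Cct2, first start, chr10:117063376-117063625, minus strand: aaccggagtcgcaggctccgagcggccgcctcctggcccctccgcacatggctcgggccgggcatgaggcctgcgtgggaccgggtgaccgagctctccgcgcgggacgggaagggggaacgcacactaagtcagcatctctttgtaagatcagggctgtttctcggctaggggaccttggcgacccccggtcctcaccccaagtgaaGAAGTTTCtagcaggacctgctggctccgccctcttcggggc
Cct2, second start, chr10:117063853-117064102, minus strand: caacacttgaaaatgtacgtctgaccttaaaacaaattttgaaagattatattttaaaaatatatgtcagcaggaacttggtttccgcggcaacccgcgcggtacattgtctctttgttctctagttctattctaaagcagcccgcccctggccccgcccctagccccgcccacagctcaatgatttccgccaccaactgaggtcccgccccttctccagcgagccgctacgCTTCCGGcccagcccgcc
Cct3, chr3:88296885-88297134, plus strand: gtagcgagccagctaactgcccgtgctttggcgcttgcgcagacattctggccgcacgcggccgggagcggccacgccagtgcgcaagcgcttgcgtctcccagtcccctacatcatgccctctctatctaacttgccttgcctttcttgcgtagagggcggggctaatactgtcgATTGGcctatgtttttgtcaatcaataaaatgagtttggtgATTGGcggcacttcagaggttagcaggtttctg
Cct6a, chr5:129787106-129787355, plus strand: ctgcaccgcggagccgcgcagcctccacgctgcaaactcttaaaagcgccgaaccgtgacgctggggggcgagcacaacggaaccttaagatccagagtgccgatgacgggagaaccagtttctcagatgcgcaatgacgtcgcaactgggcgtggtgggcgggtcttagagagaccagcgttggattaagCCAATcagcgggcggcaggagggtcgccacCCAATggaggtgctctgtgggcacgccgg

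The capitals mark a CCAAT box (CCAAT) upstream of the starts used for Tcp1, Cct3 and Cct6a, a heat shock element core (GAANNTTC) in the first Cct2 window and an ETS motif (CCGGAAG) in the second. The Cct2 starts are numbered by coordinate, and the gene is on the minus strand. Its first window therefore lies inside the annotated gene, downstream of the second window. The printed windows of Tcp1 and Cct6a also lie inside the gene spans given above. All motifs were searched on both strands of the 300-base windows, and no 2 matches overlapped in the members' windows. CCAAT was found in windows of 4 members (Tcp1, Cct3, Cct6a and Cct7) and in 37.4% of all 32851 windows. The heat shock element core, the site read by heat shock factors, was searched as TTCNNGAA and as GAANNTTC. Either form was found in 3 of the 9 windows (Cct2, Cct5 and Cct6a), and in 15.1% of all windows. CCGGAAG was found for Tcp1 (across the start, so not in capitals), Cct2 and Cct8, and in 8.86% of all windows. The cAMP response element (TGACGTCA) was in no member window and in 1.79% of all windows, and the NRF1 motif was in 1 Cct5 window and in 0.971% of all. No motif of this set was found in every subunit gene, and a match is a description of letters, not a site shown to be bound.

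Libraries held 12669809 to 26388542 counts on genes per mouse, so that each subunit was counted 1150 to 4137 times in a mouse. Markers of striatal projection neurons were high in every mouse, with a summed level of 4944 to 8728 CPM (counts scaled to the library size) over 9 genes. KI-FL libraries held fewer genes than WT libraries, with 16384 to 23950 genes detected against 25771 to 28700 and no overlap. Of the tested genes, 134 to 222 were at 0 counts in KI-FL replicates 1 to 3 and 3186 in KI-FL replicate 4, against 10 to 45 in WT mice. Among WT mice, replicates 5 to 7 had the larger totals. Cortical neuron markers reached a summed 952 CPM in WT replicate 3 against 8.80 to 378 elsewhere, and choroid plexus markers reached 5202 CPM in KI-571 and 2939 CPM in KI-FL mice. Tissue RNA gives a mean over all cells, so that fewer cells of a type and less RNA per cell cannot be told apart.

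No subunit passed the adjusted threshold in any comparison, but in KI-FL mice all 8 were fitted above WT, and for Tcp1, Cct2 and Cct3 the KI-FL and WT mice did not overlap. The fitted rise in KI-FL was 30.2% for Tcp1, 20.2% for Cct3 and 19.6% for Cct2, and 3.46% to 10.7% for the other 5. KI-FL libraries were also those with the fewest genes detected, and the part of this in the rise was not tested. In KI-96 and KI-571 no subunit separated from WT, and the largest fitted log2 fold changes were those of Tcp1, 0.20 and 0.11. Levels are given below as CPM after TMM normalization, and differences as log2 fold changes with their standard errors from edgeR's quasi-likelihood fit of all 19 mice.

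Tcp1 encodes subunit alpha, the one for which the complex was named. Its level in the 7 WT mice ran from 103 to 128 CPM with a median of 109.9. The KI-96 mice had 158, 126, 133 and 102 CPM, and the KI-571 mice had 153, 106, 119.6 and 109 CPM. The KI-FL mice had 129.7, 153, 144 and 162 CPM. All 4 KI-FL mice were above the highest WT mouse, the nearest by a narrow margin, whereas KI-96 mice lay below, inside and above the WT range and KI-571 had 1 mouse above it and 3 inside. The group means were 113 ± 8.46 CPM (SD, n = 7) in WT and 147 ± 13.7 (SD, n = 4) in KI-FL, a log2 fold change of 0.38 (SE 0.11) with an unadjusted p of 0.00245 and an adjusted p of 0.114 by edgeR. In KI-96 the log2 fold change was 0.20 (SE 0.11, adjusted p = 0.711 by edgeR), and in KI-571 it was 0.11 (SE 0.11, adjusted p = 0.938 by edgeR). Tcp1 also shares the most exon bases with other genes among the 8.

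Cct2 encodes subunit beta. The WT mice lay between 102 and 123 CPM with a median of 115. KI-96 mice had 145, 122, 105 and 113 CPM, and KI-571 mice had 135, 107, 110.2 and 122 CPM. KI-FL mice had 128, 144, 130.4 and 143 CPM, so that the lowest KI-FL mouse was above the highest WT mouse. The log2 fold change in KI-FL was 0.26 (SE 0.089), with an unadjusted p of 0.00839 and an adjusted p of 0.162 by edgeR. It was 0.089 (SE 0.089) in KI-96 and 0.059 (SE 0.089) in KI-571, where single mice lay above WT and the rest among them.

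Cct3 encodes subunit gamma and gave the tightest KI-FL group of the 3. WT mice lay between 98.7 and 114 CPM with a median of 111. KI-FL mice had 133, 135, 125 and 129.5 CPM, a mean of 131 ± 4.11 (SD, n = 4) against 109 ± 6.11 (SD, n = 7) in WT. The log2 fold change was 0.27 (SE 0.090), with an unadjusted p of 0.00737 and an adjusted p of 0.155 by edgeR. KI-96 mice spread from 87.2 to 129 CPM, on both sides of WT, and KI-571 mice from 102 to 121 CPM. The fitted changes there were 0.042 (SE 0.090) and 0.052 (SE 0.090) on the log2 scale.

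**Figure D1:**
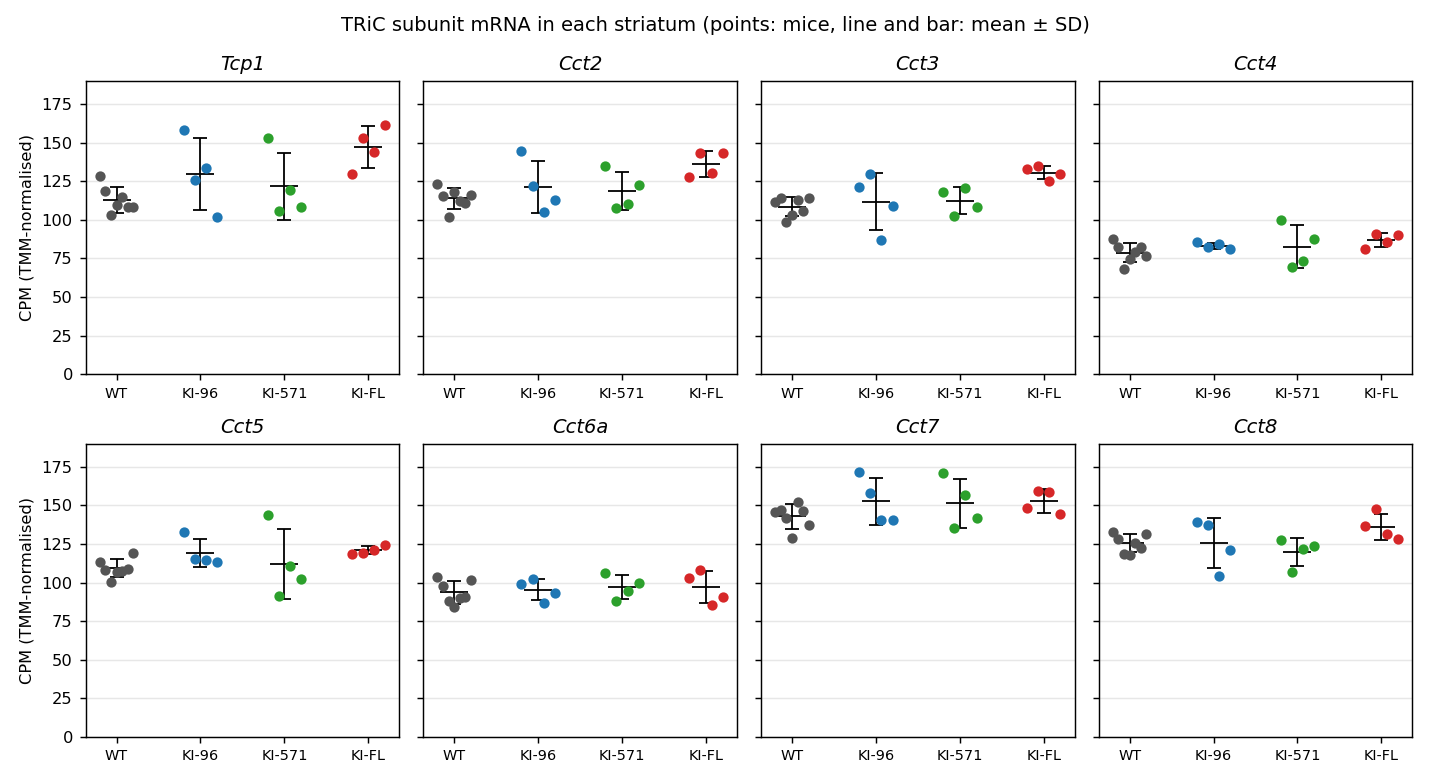
Level of each TRiC subunit mRNA in each mouse, in CPM (y axis, from 0), by genotype (x axis). Points are mice and bars give the mean ± SD of 7 WT mice or 4 mice of each KI genotype. For Tcp1, Cct2 and Cct3 all 4 KI-FL points lie above all 7 WT points, and for the other 5 subunits they overlap.

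The other 5 subunits overlapped between WT and KI-FL. Cct5, subunit epsilon, held 119, 119, 121 and 125 CPM in KI-FL mice, and 6 of the 7 WT mice lay below these values while WT replicate 7 had 119.3 CPM. Its log2 fold change was 0.15 (SE 0.095, adjusted p = 0.439 by edgeR). Cct4, subunit delta, had the lowest level in CPM, 78.8 ± 6.29 (SD, n = 7) in WT and 87.0 ± 4.50 (SD, n = 4) in KI-FL, a log2 fold change of 0.14 (SE 0.091, adjusted p = 0.440 by edgeR). Cct8, subunit theta, had 125 ± 5.82 CPM (SD, n = 7) in WT and 136 ± 8.47 (SD, n = 4) in KI-FL, a log2 fold change of 0.12 (SE 0.083, adjusted p = 0.486 by edgeR). For Cct4, Cct5 and Cct8 all 4 KI-FL mice were above the WT median.

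Cct7, subunit eta, was the most abundant of the 8 in CPM. It had 143 ± 7.84 CPM (SD, n = 7) in WT and 153 ± 7.65 (SD, n = 4) in KI-FL, a log2 fold change of 0.096 (SE 0.082, adjusted p = 0.567 by edgeR). Cct6a, subunit zeta, had the smallest change in KI-FL. Its KI-FL mice had 103, 108, 85.6 and 90.9 CPM, a spread as wide as that of the WT mice, which ran from 83.9 to 104 CPM with a median of 90.8. The log2 fold change was 0.049 (SE 0.086), with a 95% confidence interval from -0.13 to 0.23 (adjusted p = 0.793 by edgeR). Both a small fall and a rise lie inside this interval.

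**Figure D2:**
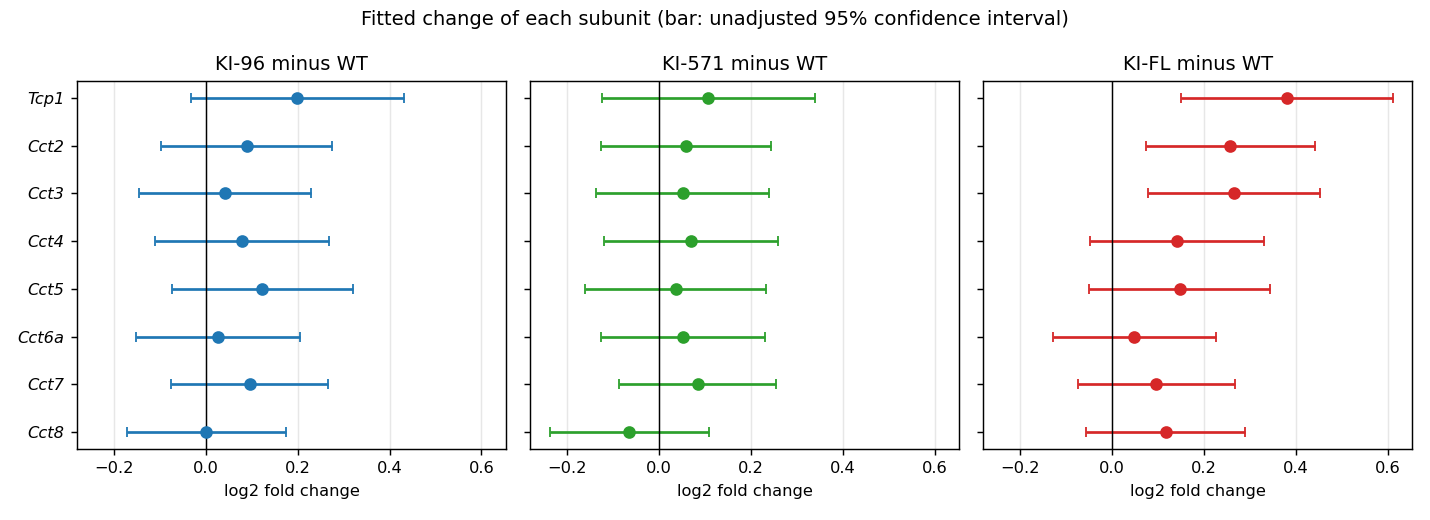
Fitted log2 fold change (x axis) of each subunit (y axis) against the same 7 WT mice, with a panel for each KI genotype, with unadjusted 95% confidence intervals from the fit of all 19 mice. In KI-FL the intervals of Tcp1, Cct2 and Cct3 lie above 0, from 0.15 to 0.61 for Tcp1, while all intervals in KI-96 and KI-571 include 0.

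Read against all tested genes, the KI-FL pattern was as follows. The adjusted threshold of 0.05 was passed by 0 of the 8 subunits in each comparison, and by 0.194% of all tested genes in KI-FL, 0.027% in KI-96 and 0.0324% in KI-571. A test for any difference among the 4 genotypes called 0.14% of all genes and 0 subunits. At an unadjusted p under 0.05, 3 of the 8 subunits were higher in KI-FL, where 7.89% of all tested genes were, and 0 were higher in KI-96 and in KI-571, where 4.36% and 3.89% were. For any difference among the genotypes, 2 subunits (Tcp1 and Cct3) had an unadjusted p under 0.05, against 11.7% of all genes. All KI-FL mice were above all WT mice for 3 of 8 subunits and for 2.9% of tested genes. In KI-96 and KI-571 this held for 0 subunits, and for 0.599% and 0.88% of genes. The 3 subunits held the same separation without KI-FL replicate 4, without KI-FL replicate 2 and without WT replicate 3, where 4.71%, 4.17% and 3.7% of tested genes separated. With WT replicates 1 to 4 alone Cct5 separated as well, beside 3.46% of tested genes. These separations were counted after the values had been seen.

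The choice of samples in the fit changed the calls. When WT and KI-FL mice were fitted without the other genotypes, Tcp1 (adjusted p = 0.0327) and Cct3 (adjusted p = 0.0485) passed the threshold by edgeR and Cct2 (adjusted p = 0.0639) did not, with log2 fold changes of 0.38, 0.26 and 0.26. That fit called 1.89% of all tested genes. The SD of Tcp1 was 23.1 CPM in KI-96 and 21.5 in KI-571, against 8.46 in WT, and its part in the number of calls was not tested. DESeq2 on all 19 mice called 0 subunits in KI-FL, with an adjusted p of 0.0586 for Tcp1.

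The direction of the fitted changes was shared more widely than their size. All 8 subunits were above WT in KI-96 and in KI-FL and 7 of 8 in KI-571, where Cct8 was at -0.064 (SE 0.084). The median log2 fold change of the 8 was 0.14 in KI-FL, 0.056 in KI-571 and 0.084 in KI-96, beside medians of -0.028, -0.0089 and -0.015 over all tested genes. Of all tested genes 46.1%, 48.3% and 47.2% were above WT. With Xist as a covariate the median in KI-96 was 0.022 and Cct4, Cct6a and Cct8 were fitted below WT. The 3 comparisons share the 7 WT mice, and the 8 subunits vary together, so that 8 equal signs are not 8 separate observations. In KI-96 and KI-571 the sign also rests on few mice. Without KI-571 replicate 1, the log2 fold changes of Tcp1, Cct2, Cct4 and Cct5 in KI-571 fell below 0, to -0.023, -0.0086, -0.037 and -0.11. Without KI-96 replicate 1, Cct2, Cct3 and Cct8 in KI-96 were at -0.0083, -0.0016 and -0.053. Differences between the KI genotypes themselves were not tested.

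Markers of other cell types also differed in fitted level in KI-FL. All 6 oligodendrocyte markers were fitted lower in KI-FL, with a median log2 fold change of -0.23 and a summed level of 9785 to 11352 CPM against 10402 to 14780 in WT. For astrocytes 5 of 6 markers were lower, with a median of -0.26 and sums of 1496 to 1570 CPM against 1511 to 1829. The 9 striatal projection neuron markers had a median of -0.0093, with sums of 6460 to 7705 CPM against 5423 to 8728. All 5 choroid plexus markers were fitted higher in KI-FL and all 4 cortical markers lower, each with 1 library far from the rest. The mean log2 CPM of the choroid plexus markers was 5.85 in KI-FL replicate 1 and 0.23 to 2.23 in the other KI-FL mice, against 0.47 to 3.22 in WT. For the cortical markers this mean reached 6.32 in WT replicate 3, where the remaining WT mice ran from 0.41 to 3.06 and KI-FL mice from -0.35 to 3.20. Neurod6 (cortical) and Folr1 and Kcnj13 (choroid plexus) were at 0 counts in KI-FL replicate 4. All 5 blood genes were fitted lower in KI-FL, with Hba-a1 at -1.23 (SE 0.30), and of the 6 microglia markers P2ry12 was at -0.54 (SE 0.13) and Tmem119 at 0.53 (SE 0.17). Of these 7 lists, 0 markers passed the adjusted threshold in KI-FL by edgeR. An unadjusted p under 0.05 was found for 3 of 6 astrocyte, 1 of 6 oligodendrocyte, 3 of 5 choroid plexus, 2 of 5 blood and 3 of 6 microglia markers, and for 16.7% of all tested genes. In KI-571 the blood genes Alas2 (log2 fold change 1.77, SE 0.30, adjusted p = 0.0281) and Hbb-bt (1.68, SE 0.30, adjusted p = 0.0467) passed the threshold by edgeR, and these genes, Hbb-bs and Hba-a1 passed the test for any difference. The part of these markers in the subunit levels was not tested.

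The subunits varied together from mouse to mouse. Over the 19 mice the 28 pairs of subunits had a median Pearson r of 0.586 in log2 CPM (Spearman rho 0.645), and all 28 were positive. The median over all pairs of tested genes was 0.00815, and 4.95% of them lay above the median of the subunits. Cct3 and Cct8 were the closest pair (r = 0.860, rho = 0.830), followed by Tcp1 and Cct2 (r = 0.833, rho = 0.737). Tcp1 and Cct6a were the loosest pair (r = 0.339, rho = 0.319). All values in a mouse share 1 library and its normalization, and the subunits lie well above most genes in level (mean log2 CPM of 6.83 against a median of 3.73), where counting noise is small. These correlations are descriptions, with no test.

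**Figure D3:**
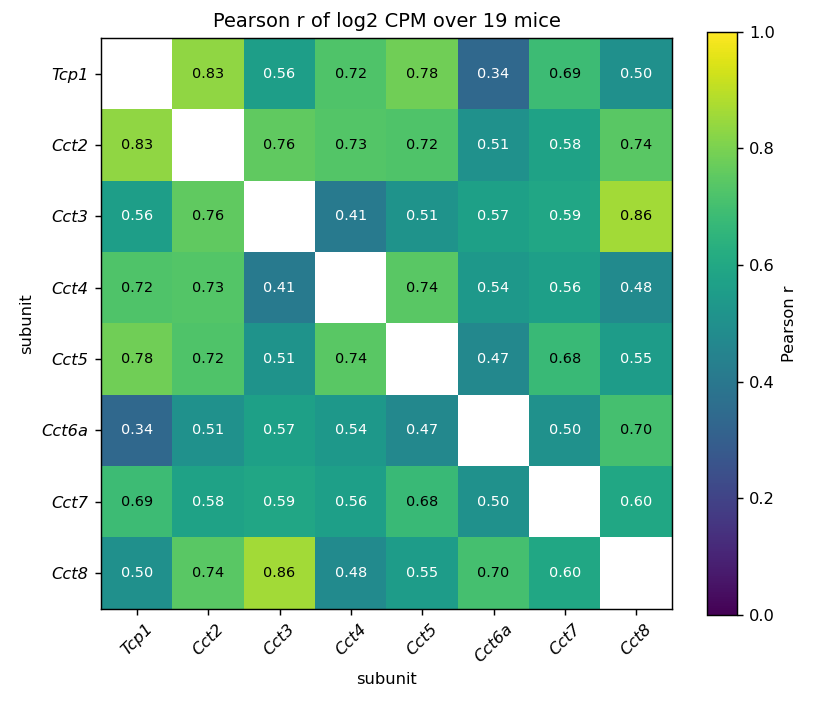
Pearson r of log2 CPM for each pair of the 8 subunits over 19 mice, with both axes listing the subunits and color giving r from 0 to 1. All 28 pairs are positive, from 0.34 for Tcp1 with Cct6a to 0.86 for Cct3 with Cct8.

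Within genotypes the joint variation was also seen. After each genotype's mean was taken away, the median r of the 28 pairs was 0.610 (median rho 0.570, lower than the 0.645 across all mice) and all were positive. In the 7 WT mice alone it was 0.615 (median rho 0.464), with 26 of 28 pairs positive and a range from -0.16 to 0.95, and 8.90% of all gene pairs lay above it. In the 12 KI mice it was 0.587 (median rho 0.605), with all 28 positive and 8.45% of all gene pairs above it. Without KI-FL replicate 4 it was 0.641, and without the 2 mice whose mean level over the 8 subunits lay farthest from the median (KI-571 replicate 1 and KI-FL replicate 2) it was 0.572. In the last set Tcp1 and Cct6a fell to 0.113.

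Cct2 followed its partners most closely, with r = 0.885 (rho = 0.854) between its level and the mean of the other 7 subunits. Cct5 (0.793), Tcp1 (0.785), Cct8 (0.761), Cct4 (0.739), Cct7 (0.736) and Cct3 (0.728) came next in r. Cct6a was last at 0.596 (rho = 0.651), and at 0.434 without the 2 mice named above. In deviations from the genotype means Cct6a reached 0.664, above Cct3 (0.629), so that it was not last on that scale.

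Single mice show the same pattern. The mean log2 CPM of the 8 subunits was 6.77 ± 0.073 (SD, n = 7) in WT, 6.85 ± 0.13 (SD, n = 4) in KI-96, 6.81 ± 0.16 (SD, n = 4) in KI-571 and 6.95 ± 0.053 (SD, n = 4) in KI-FL. KI-FL mice ran from 6.91 to 7.02 and WT mice from 6.65 to 6.87, with no overlap. KI-571 held both the lowest mouse of the study, replicate 2 at 6.64, and 1 of the highest, replicate 1 at 7.02. In KI-571 replicate 2 every subunit was below its 19-mouse mean, and in KI-571 replicate 1 every subunit was above it. KI-96 replicate 3 was split, with Cct3 at 87.2 and Cct8 at 104 CPM, the lowest of all 19 mice for both, and Tcp1 at 133 CPM, above the WT range. That library also had the largest share of reads that the counting placed on no annotated feature, 24.2%.

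**Figure D4:**
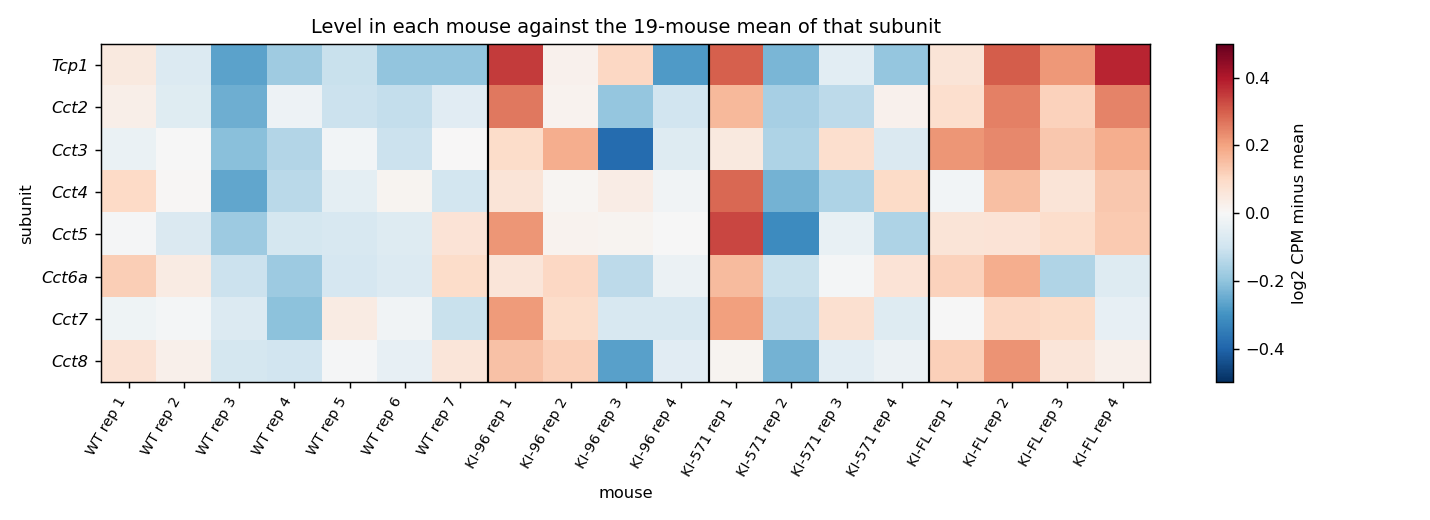
Log2 CPM of each subunit (rows) in each of 19 mice (columns, ordered by genotype and divided by lines) minus that subunit's 19-mouse mean, with red above and blue below the mean. Columns tend to be of one color, as in KI-571 replicate 1 (above) and replicate 2 (below), and Tcp1, Cct2, Cct3, Cct5 and Cct8 are red in all 4 KI-FL mice.

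The joint level also varied with other properties of the libraries. Across the 19 mice its Pearson r was 0.47 (rho 0.586) with the striatal projection neuron markers, -0.435 (rho -0.211) with the cortical markers, -0.441 (rho -0.332) with blood markers, -0.529 (rho -0.670) with the number of genes detected and -0.367 (rho -0.374) with the log of the total count. In deviations from the genotype means the values for projection neuron markers and genes detected were 0.608 and -0.184. The part of these properties in the joint variation was not tested.

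Outside the complex, 10 genes had levels most like the mean of the 8 subunits over the 19 mice. These were Klhl13 (r = 0.873, rho = 0.893), an adaptor of a ubiquitin ligase, and Chtop (r = 0.844, rho = 0.886), a factor of mRNA export. Plekhb2 (0.838), the calcium buffer Calb1 (0.826), the protease inhibitor Serpine2 (0.819), the mitochondrial carrier Slc25a51 (0.816), the synaptic adhesion protein Lrrtm3 (0.815), the ATP synthase subunit Atp5a1 (0.814), Arhgdib (0.812) and the RNA-binding protein Nono (0.809) came next in r. Of all tested genes, the 8 subunits themselves included, 0.0918% had r above 0.8, and the median r with the subunit mean was -0.063.

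Levels were compared between subunits per kilobase of length, and the order depended on which length was taken. With all exon bases of a gene as the length, Cct2 was highest at 47.4 ± 5.15 CPM per kilobase (SD, n = 19), followed by Cct5 (41.3), Cct8 (41.0), Cct6a (26.4), Tcp1 (25.0), Cct7 (21.95), Cct4 (19.6) and Cct3 (18.0). Between neighbors in this order, Cct8 was above Cct6a in 19 of 19 mice, by 1.55-fold. Cct5 was above Cct8 in 9 of 19 mice and Cct6a above Tcp1 in 13 of 19, so that these neighbors did not differ beyond their spread. The second length was that of the transcript with the longest coding sequence, or for Cct6a, which has none, its longest transcript. With it, Cct2 (61.9), Cct5 (61.7), Cct7 (61.0) and Cct3 (58.0) were close together. Cct8 (52.8) and Tcp1 (51.3) followed, and Cct6a (38.9) and Cct4 (33.1) were lowest. Cct3 has 6370 exon bases in all and 1977 in the transcript used, and Cct7 has 6778 and 2441. The change of order follows from these lengths. On both scales Cct2 and Cct5 had the highest means over the 19 mice, and the mean of Cct4 was below that of Cct6a. With the second length the order at the top changed by genotype. Cct7 was above Cct2 in WT (58.5 against 58.2), and Cct3 was above Cct5 in KI-FL (66.0 against 65.3). Neighbors were not compared within mice on that scale.

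**Figure D5:**
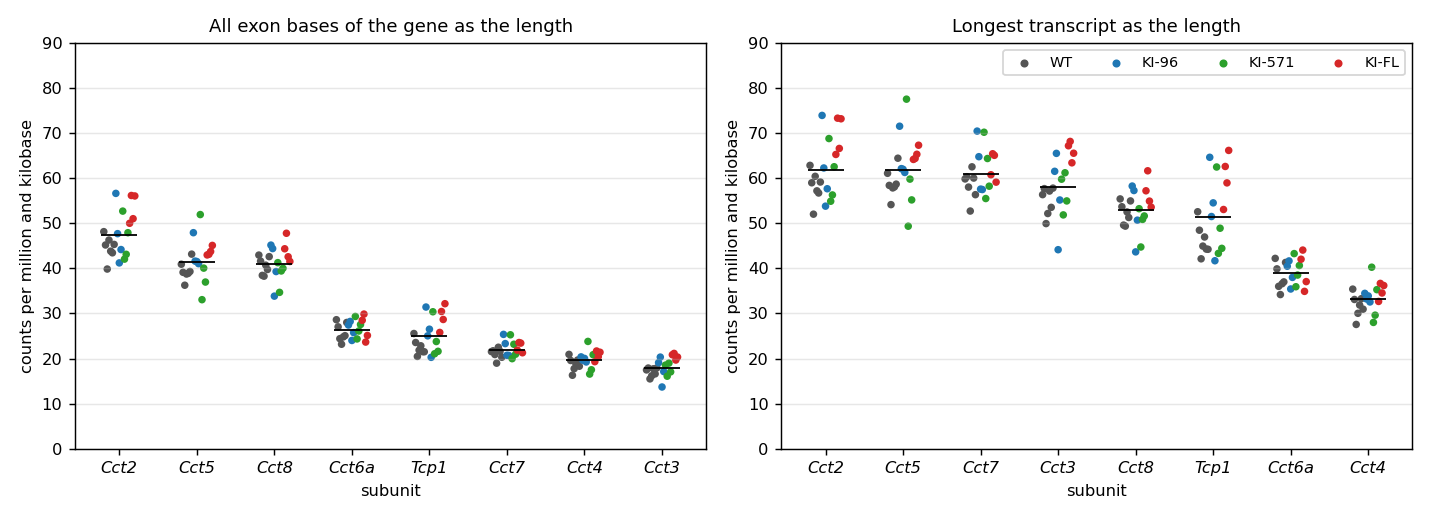
Level of each subunit in CPM per kilobase (y axis, from 0), ordered by its mean. The length is all exon bases (left) or the transcript with the longest coding sequence (right, for Cct6a its longest transcript). Points are 19 mice colored by genotype and lines are means. Cct3 moves from the last place on the left (18.0) to the fourth on the right (58.0).

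The balance among subunits was described by their shares. As a share of the summed level per kilobase over the 8 subunits, Tcp1 made up 9.77 ± 0.42% in WT (SD, n = 7) and 11.2 ± 0.85% in KI-FL (SD, n = 4), with WT mice from 9.07% to 10.4% and KI-FL mice from 10.2% to 12.2%. Cct6a made up 11.2 ± 0.49% in WT and 10.3 ± 0.95% in KI-FL. Both overlapped between the groups, by a narrow margin for Tcp1. The share of Cct3 did not overlap, at 7.73% to 8.22% in KI-FL mice against 7.10% to 7.71% in WT mice. Nor did that of Cct8 in KI-571 mice, at 15.1% to 17.2% against 17.3% to 18.1% in WT. All other shares of a KI genotype overlapped those of WT, and the shares were not tested.

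The partners of TRiC did not move as 1 group. In the list of prefoldin, phosducin-like, tubulin cofactor, client, related chaperonin and heat shock factor genes, 0 genes passed the adjusted threshold in any KI genotype by edgeR. Prefoldin, the jaw-shaped complex that passes new actin and tubulin chains to TRiC, had 6 tested subunits, and 3 of them in KI-FL, 3 in KI-571 and 1 in KI-96 had an unadjusted p under 0.05. Of all tested genes 16.7% in KI-FL, 7.72% in KI-571 and 7.45% in KI-96 did. Pfdn2 had the largest change, with 91.3, 92.4, 99.9 and 132 CPM in KI-FL mice and 56.4 to 84.9 CPM with a median of 68.8 in WT. All KI-FL mice were above all WT mice, and WT replicates 5 to 7, the deeper libraries, held the 3 lowest values. The log2 fold change of Pfdn2 was 0.58 (SE 0.15, adjusted p = 0.0800 by edgeR) in KI-FL, 0.54 (SE 0.15, adjusted p = 0.207 by edgeR) in KI-571 and 0.42 (SE 0.15, adjusted p = 0.599 by edgeR) in KI-96. Pfdn4 was at -0.43 (SE 0.17) in KI-FL, and Pfdn6 at 0.36 (SE 0.14), so that prefoldin subunits were fitted on both sides of WT.

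Phosducin-like proteins bind TRiC and help it with its clients. In KI-FL the 3 tested genes had log2 fold changes of 0.074 (Pdcl), 0.13 (Pdcl3) and -0.060 (Txndc9). None of them had an unadjusted p under 0.05 in any KI genotype. Tubulin cofactors take over tubulin after TRiC. Among the 5 tested, Tbce was lower in KI-FL, with 32.7, 37.8, 29.8 and 28.7 CPM against 38.9 to 45.1 CPM and a median of 43.4 in WT, with no overlap, a log2 fold change of -0.41 (SE 0.12, adjusted p = 0.104 by edgeR). Tbcb was at 0.33 (SE 0.12, adjusted p = 0.177 by edgeR).

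The 18 client genes tested include actins, tubulins, G protein beta subunits and WD40 proteins. Of the 18, 12 were fitted above WT in KI-FL, with a median log2 fold change of 0.12. In KI-96 and in KI-571 7 were, with medians of -0.019 and -0.062. In KI-FL 1 client was higher and 2 were lower at an unadjusted p under 0.05, which is 3 of 18 and close to the 16.7% of all tested genes. Cdc20, an activator of the anaphase-promoting complex, was at 0.78 (SE 0.28), and Tuba1a, a neuronal alpha tubulin, was at -0.37 (SE 0.12), with adjusted p of 0.177 and 0.153 by edgeR. The level of Cdc20 was low, at 1.79 to 5.94 CPM in KI-FL mice and 1.76 to 2.89 CPM in WT mice, with overlap. Actb was at 0.13 (SE 0.12). The largest client values were -0.40 (SE 0.13) for Gnb4 and -0.39 (SE 0.15) for Tubb2a in KI-571, and -0.49 (SE 0.30) for Cdc20 and 0.33 (SE 0.14) for Gnb1 in KI-96. The 5 tested chaperonin relatives were all fitted below WT in KI-FL, with a median of -0.25 and the largest values for Bbs12 (-0.71, SE 0.51) and Bbs10 (-0.34, SE 0.30), and Bbs12 had 0 counts in KI-FL replicate 4. Hspd1, the chaperonin of mitochondria, was at -0.049 (SE 0.10). Both heat shock factor genes tested, Hsf1 at -0.17 (SE 0.17) and Hsf2 at -0.18 (SE 0.11), were fitted below WT in KI-FL, and neither passed the test. These directions were not particular to KI-FL. Hsf1 and Hsf2 were at -0.20 and -0.18 in KI-571, and at -0.23 and -0.11 in KI-96. The chaperonin relatives were fitted below WT for 5 of 5 in KI-571 and 4 of 5 in KI-96.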

How the data were processed

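Striatal RNA of 19 mice was sequenced. The deposited table holds the authors' raw counts (HTSeq), made from adapter-trimmed reads of at least 100 bp aligned to GRCm38 with STAR. Versions, annotation and strand setting of the counting are not given in the sources used here, nor are sex and sacrifice batch per mouse, so the batch covariate of the study's own model was not used. The study left out a WT sample that its text does not name, and all 7 WT mice were kept here. Its methods give 4 to 5 mice per genotype, fewer than the 7 WT mice in the labels. The 5 summary lines of HTSeq (20.8% to 32.8% of reads) were left out, and 4 columns of other samples were not used.

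Counts were normalized by TMM, filtered with filterByExpr (minimum count 10, minimum total 15) and fitted for all 19 mice in edgeR 4.0.16 (R 4.3.3) with a term per genotype. Quasi-likelihood tests compared each KI genotype with WT and tested any difference among the 4 genotypes, adjusted by Benjamini-Hochberg over 18521 genes (threshold 0.05). Replicates are mice, the lowest chi-square per degree of freedom between 2 mice of a genotype was 8.60, and the biological coefficient of variation was 0.240. Log2 CPM used a prior count of 2. Identifiers were matched to names for 54079 of 54232 genes, and lengths come from GENCODE M21. Transcripts were searched with blastn 2.17.0. Alternatives were DESeq2 1.42.0, its size factors, no filter, fewer samples, a replicate block, Xist, sva 3.50.0 and leaving out each mouse. The scripts were tested on simulated data.

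The members and gene lists were chosen with earlier results of these data known. The text names all 8 subunits, in each list of TRiC partners the genes that passed the test and the 2 with the largest absolute log2 fold change, and the 10 genes most like the subunit mean. Txndc9, Pdcl, Pdcl3, Actb, Hspd1 and Pfdn6 and single markers were added after their values were seen.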

Additional observations from a re-analysis of the deposited data

Results flagged for a closer look

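In KI-96 mice, replicate 1 stood apart from its group for Cct5. Its log2 CPM was 7.05, while the other 3 KI-96 mice lay between 6.83 and 6.85, and the gap of this mouse to the nearest other was 0.911 of the whole range, above the critical value for 4 samples. Of 36 sets of values examined (8 subunits and their mean in each of 4 genotypes) 1 stood out in this way, and chance gives about 1.8.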

How the results depend on the processing

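In all fits that were run, 0 subunits were called in KI-96, in KI-571 and for any difference, and in KI-FL the count was 0 except for 2 (Tcp1 and Cct3) when only WT and KI-FL mice were fitted. The 3 non-overlapping subunits of KI-FL remained 3 without KI-FL replicate 2, KI-FL replicate 4 or WT replicate 3, and were 4 with WT replicates 1 to 4 only, settings added after the data were seen. The numbers of all genes called were less stable than those of the subunits. In the order KI-96, KI-571, KI-FL and any difference, the numbers were 5, 6, 36 and 26 as reported, 28, 115, 509 and 431 with DESeq2, 23, 78, 85 and 226 without the filter on low counts, 2, 10, 2 and 7 with 1 surrogate variable, 0, 6, 0 and 3 with Xist as a covariate, and 0, 0, 0 and 5 with WT replicates 1 to 4 only. Fits of only the groups compared gave 0, 55 and 336. With each mouse left out in turn they ran from 1 (without KI-96 replicate 1) to 10 (without WT replicate 1), from 0 (without WT replicate 3) to 46 (without KI-571 replicate 3), from 0 (without WT replicate 1) to 159 (without KI-96 replicate 3), and from 0 (without KI-571 replicate 2) to 63 (without KI-FL replicate 1). The cause of these shifts was not tested.

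Whether the replicate numbers pair the mice could not be decided. Of 24 pairs with the same number 5 had a correlation over 0.1, with a range from -0.128 to 0.290. Pairs with different numbers were not compared. The replicate block called 0, 1, 0 and 7 genes and 0 subunits, with an adjusted p of 0.525 for Tcp1 in KI-FL by edgeR.

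Signs in KI-96 depended on the fit. Cct8 in KI-96 was at -0.012 without the filter, -0.00053 with only the groups compared and -0.079 with Xist as a covariate, and Cct4 and Cct6a were at -0.019 and -0.11 with Xist. With each mouse left out in turn, log2 fold changes in KI-96 ran from -0.0083 to 0.15 for Cct2, -0.037 to 0.14 for Cct3, -0.0095 to 0.065 for Cct6a and -0.053 to 0.077 for Cct8. In KI-571 they ran from -0.023 to 0.17 for Tcp1, -0.0086 to 0.10 for Cct2, -0.037 to 0.14 for Cct4 and -0.11 to 0.12 for Cct5, and in KI-FL from -0.0075 to 0.095 for Cct6a. In KI-FL the ranges of Tcp1 (0.33 to 0.42), Cct2 (0.22 to 0.27) and Cct3 (0.23 to 0.28) stayed above 0. So did those of Cct4 (0.10 to 0.16), Cct5 (0.12 to 0.16), Cct7 (0.062 to 0.12) and Cct8 (0.075 to 0.14). The median correlation of the subunits ran from 0.544 (without KI-571 replicate 2) to 0.668 (without KI-96 replicate 3), and was 0.544 with DESeq2 size factors. With 4 mice in a KI group, the standard errors of the subunits' log2 fold changes were 0.082 to 0.11, which limits the size of change that could be seen.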
